A study of Mus musculus with 8 samples.

Results

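Receptors for serotonin, dopamine, noradrenaline, histamine and acetylcholine were examined in the brains of fasted and fed mice. They were taken from the array by the gene name of each probe, with the serotonin (Htr), dopamine (Drd), adrenergic (Adra and Adrb), histamine (Hrh), muscarinic (Chrm) and nicotinic (Chrn) prefixes. This gave 69 of the 39429 non-control probes, for 53 genes. The study used 4 brains labelled as fasting and 4 labelled as fed, on 8 single-colour arrays; fasting or feeding lasted 17 h before dissection. Strain, age, sex and the number of mice behind each sample are not given in the sources used here, so the p-values reflect sample-to-sample spread alone, and some of it may be technical. Each sample is labelled only as brain, and in such bulk tissue less RNA per cell and fewer cells of a type cannot be told apart.

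These receptors receive the signals of small groups of neurons in the brainstem, hypothalamus and basal forebrain that project widely through the brain and set arousal, reward and appetite. Most are G protein-coupled receptors. Those coupled to Gs raise cyclic AMP, those coupled to Gi lower it, and those coupled to Gq release calcium from internal stores. The nicotinic receptors and the serotonin receptor subunits Htr3a and Htr3b form cation channels that open within milliseconds.

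Most of these receptors showed no difference between fasted and fed brain that passed the test. The nicotinic subunit Chrnb2 and the dopamine receptor Drd5 rose in fasted brain, by 1.12-fold and 1.27-fold. The muscarinic receptor Chrm1, the histamine receptor Hrh1 and the serotonin receptor Htr4 fell, and were 1.1-fold, 1.17-fold and 1.17-fold lower (n = 4 per group). Of 53 receptor genes, 42 had a probe well above background on at least 4 of the 8 arrays and were tested, and 5 of these 42 (11.9%) passed an adjusted p of 0.05 with limma. Among all 16107 genes tested, 19.4% passed, 9.96% higher and 9.41% lower in fasted brain. With the median of each array in place of its 75th percentile, 2 receptors were higher and 0 lower, and 14.9% of all genes passed. With the replicate number as a block 3 receptors passed, and 16.8% of all genes. With 4 arrays a group, small differences are estimated coarsely.

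The median log2 difference over the 42 receptors was 0.01, and over all genes tested it was -0.01. A positive difference was seen for 22 receptors and a negative one for 20. The groups did not overlap for 6 receptors, which were Chrnb2, Chrm1, Hrh1, Htr4, Drd2 and Drd3, while 26.9% of all genes tested had such separate groups. Receptor probes were often dim: with all genes tested ranked by mean signal into 4 equal bins, 20 of the 42 lay in the dimmest bin, 10 in each middle bin and 2 in the brightest. In that dimmest bin 14.2% of all genes passed, with a median standard error of 0.108 on the log2 scale, and 1 of the 20 receptors there passed, Drd5.

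**Figure D1:**
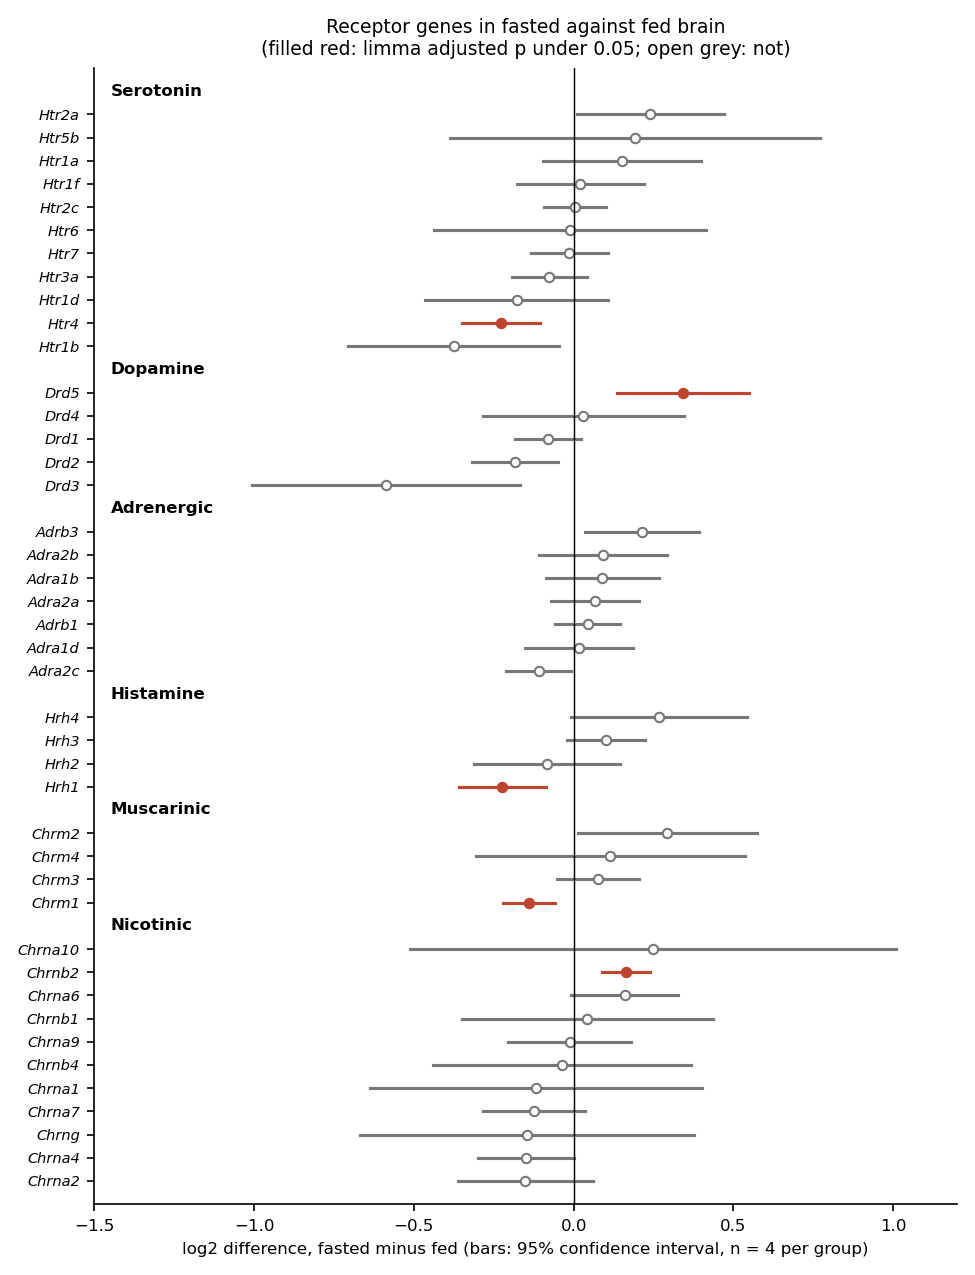
Log2 difference (fasted minus fed, horizontal axis) of the 42 receptor genes tested, by family, with 95% confidence intervals (n = 4 per group). Filled red points passed a limma adjusted p of 0.05, which were Htr4, Drd5, Hrh1, Chrm1 and Chrnb2, and open grey points did not.

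Arrays lay on 2 slides with 2 arrays of each group on each, and fasting cannot be told apart from place on the slide, since fasted arrays took places 1 and 3 and fed arrays places 2 and 4. No receptor passed in limma for a difference between slides (lowest adjusted p = 0.186), while 104 of all 16107 genes tested did. In that fit 5 of the 42 receptors had an unadjusted p under 0.05. All genes were not counted at that cutoff, so these 5 cannot be set against a share of the array. Each array had 24564 to 27219 detected probes, and 0 spots were saturated. Markers of brain cells were present: all 5 neuronal, 5 astrocyte and 5 oligodendrocyte markers were kept, while 4 of 4 pituitary markers were not. Of all genes tested 9.96% rose and 9.41% fell. Of 5 microglial markers 4 fell, and their mean scaled log2 level was 0.71 to 0.95 on fasted and 1.12 to 1.25 on fed arrays. Of 5 oligodendrocyte markers 3 fell, with mean levels of 2.73 to 2.75 on fasted and 2.88 to 2.93 on fed arrays. Both lists were lower on every fasted array than on any fed array, and their part in the receptor differences was not tested. Striatal markers, the region with the densest dopamine receptor expression, averaged 2.48 to 2.55 on fasted and 2.47 to 2.51 on fed arrays, with 1 of 8, Tac1, past the threshold. In each of the astrocyte, choroid plexus and hypothalamic lists 1 marker rose and 1 fell. Of 4 endothelial markers 1 rose and 0 fell, and of 5 neuronal markers 0 passed.

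Of the nicotinic subunits, which form the acetylcholine channels, Chrnb2 rose. It encodes the beta subunit that joins Chrna4 in the high-affinity nicotine receptor of the brain. Its probe maps to the minus strand of chromosome 3, from 89557860 to 89557919, in mm9, which is the build of the array design. The first 30 of its 60 bases are printed here with those of the other probes that passed, to show which stretch of each transcript was measured, and no letters are in capitals. The Htr4 probe is not shown.
Chrnb2: tgggtatgttgtcactgttgaaaggtcaaa
Drd5: ccacaatttctagggtcttttagatgtgat
Chrm1: ctctcatatactaggccaacactctacaaa
Hrh1: ctgtccaaacgagatatttttgcttaccta

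Scaled log2 signal, the log2 intensity minus the array's 75th percentile, was 0.15, 0.08, 0.11 and 0.12 for Chrnb2 on fasted arrays 1 to 4 and -0.07, -0.04, -0.08 and 0.00 on fed arrays 1 to 4. Every fasted array was above every fed array, and the means were 0.11 ± 0.03 and -0.05 ± 0.03 (SD, n = 4 each). The log2 difference was 0.16 ± 0.03 (SE; limma adjusted p = 0.0128), a rise of 1.12-fold with a 95% confidence interval of 1.06 to 1.18. It was 0.17 on slide 1 and 0.16 on slide 2. Over 20 alternatives it passed in 18 (adjusted p 0.00627 to 0.343). The exceptions were the slides taken alone, with 2 arrays per group, where 0 of all genes passed.

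The other neuronal nicotinic subunits tested did not pass on their brightest probes. Chrna4, the usual alpha partner, had a brightest probe at -0.15 (adjusted p = 0.148) and a second probe, 4214 bases away, at 0.19 on the log2 scale (adjusted p over probes = 0.167). Chrna6, a subunit found on dopamine neurons, gave 0.16 (adjusted p = 0.161), and Chrna2 gave -0.15 (adjusted p = 0.281). Chrnb4, a subunit of ganglia and medial habenula, gave -0.04 with a 95% confidence interval of -0.44 to 0.37. Chrna9 and Chrna10, known from cochlear hair cells, gave -0.01 and 0.25. A second Chrna9 probe was well above background on 0 arrays. The interval of Chrna10 ran from -0.51 to 1.01. Its arrays spread from -3.90 to -2.72 in the fasted group and from -4.0 to -2.69 in the fed group, so the ranges nearly coincide.

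Chrna7, which forms a channel from copies of a single subunit, was read by a pair of probes that disagreed. In mm9 the brighter spans 70286594 to 70286653 of chromosome 7 and the dimmer spans 70244005 to 70244064, 42589 bases away on the same strand. Their first 30 bases are shown because these stretches of 1 gene gave opposite signs.
Chrna7, brighter probe: catgtttctcctttctggatgcacctcaga
Chrna7, dimmer probe: cgagaattggggtcctaactctacattgtg

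The dimmer Chrna7 probe was spotted 10 times on each array. It read -4.25, -4.20, -4.09 and -4.11 on fasted arrays 1 to 4, and -4.45, -4.36, -4.51 and -4.47 on fed arrays 1 to 4. All fasted arrays were above all fed arrays, and it was well above background on 4 fasted and 3 fed arrays. Its log2 difference was 0.28 ± 0.05 (SE; limma adjusted p over all probes = 0.00889), and 16.9% of all probes passed that test, 8.4% higher in fasted brain. The brighter Chrna7 probe read -3.59, -3.37, -3.63 and -3.62 on fasted arrays, against -3.34, -3.53, -3.47 and -3.37 on fed arrays. These ranges overlap, and the difference was -0.12 ± 0.07 (SE; adjusted p = 0.248). With normexp background correction the dimmer probe gave 0.06 (adjusted p = 0.533), so the direction of Chrna7 is unsettled.

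Of the muscle-type subunits, which build the receptor of the neuromuscular end plate, 3 of 5 were tested and 0 passed in limma. At an unadjusted p under 0.05 were 0 of the 3, against 5541 of all 16107 genes. Chrna1 gave -0.12, Chrng -0.15 and Chrnb1 0.04, with Chrnb1 well above background on 2 fasted and 2 fed arrays. A second Chrna1 probe was well above background on 0 arrays. Chrna3, Chrna5, Chrnb3, Chrnd and Chrne were well above background on 0 arrays. In all, 11 of 16 nicotinic genes were tested, 1 rose and 0 fell, against 9.96% and 9.41% of all genes. Ric3, a chaperone that helps nicotinic receptors to assemble, rose 1.1-fold (limma adjusted p = 0.0446).

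**Figure D2:**
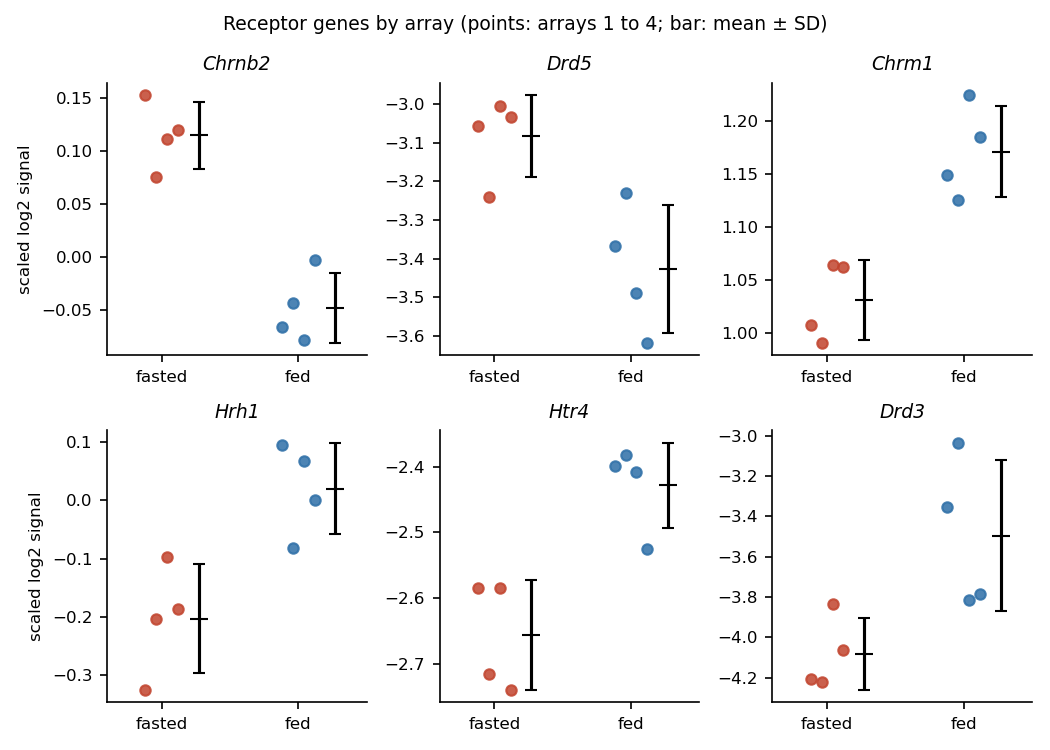
Scaled log2 signal (vertical axis, log2 intensity minus the array's 75th percentile) of the 5 receptor genes that passed and of Drd3, by array, with group mean and SD beside the points. Fasted and fed arrays are separate for each gene except Drd5, where fasted array 2 (-3.24) lies just below fed array 2 (-3.23).

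Among the muscarinic receptors, Chrm1 fell. It is the main Gq-coupled acetylcholine receptor of cortex and hippocampus. The probe, from 8758011 to 8758070 on chromosome 19 in mm9, read 1.01, 0.99, 1.06 and 1.06 on fasted arrays 1 to 4 and 1.15, 1.13, 1.22 and 1.18 on fed arrays 1 to 4. Every fasted array was below every fed array, by a log2 difference of -0.14 ± 0.04 (SE; limma adjusted p = 0.0307), 1.1-fold lower with a 95% confidence interval of 1.04 to 1.17. It was -0.14 on each slide. A second, dimmer probe 2669 bases away gave 0.03 (adjusted p over probes = 0.8), and with the probes averaged the gene did not pass. Chrm1 also did not pass without fasted replicate 1, 2 or 4, without fed replicate 1, 3 or 4, with median scaling, or without the filter on dim probes (adjusted p 0.0139 to 0.38 over its alternatives).

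The other muscarinic genes did not pass. Chrm2, the inhibitory autoreceptor of cholinergic neurons, read -1.30, -1.42, -1.52 and -1.81 on fasted arrays, against -1.57, -1.89, -1.93 and -1.83 on fed arrays. The groups overlap, and its log2 difference was 0.29 ± 0.12 (SE; adjusted p = 0.13). Chrm3 gave 0.08 and the striatal receptor Chrm4 0.11, with an interval of -0.31 to 0.53 for Chrm4. Chrm5 was well above background on 0 arrays.

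Of the histamine receptors, Hrh1 fell. It is the Gq-coupled receptor through which histamine neurons of the hypothalamus promote waking. Its brightest probe, from 114432416 to 114432475 on chromosome 6 in mm9, read -0.33, -0.20, -0.10 and -0.19 on fasted arrays 1 to 4 and 0.10, -0.08, 0.07 and 0.00 on fed arrays 1 to 4. The groups did not overlap. Their log2 difference was -0.22 ± 0.06 (SE; limma adjusted p = 0.0344), 1.17-fold lower with a 95% confidence interval of 1.06 to 1.28. It was -0.27 on slide 1 and -0.18 on slide 2. A second Hrh1 probe 713 bases away also read lower on every fasted array, with a difference of -0.18 ± 0.06 (SE; adjusted p over probes = 0.0758), and another was well above background on 0 arrays. Hrh1 missed the threshold under the replicate block (adjusted p = 0.0623), with median scaling or normexp, without the filter on dim probes (0.0728), or without fasted replicate 1, 2 or 4 or fed replicate 1, 3 or 4 (0.0133 to 0.339 over its alternatives).

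Hrh3, the inhibitory autoreceptor of histamine neurons, read 2.95, 2.92, 3.0 and 2.90 on fasted arrays, against 2.78, 2.96, 2.87 and 2.74 on fed arrays. The highest fed array lay within the fasted range, and the log2 difference was 0.10 ± 0.05 (SE; adjusted p = 0.211). Hrh2, a Gs-coupled receptor, gave -0.08 (adjusted p = 0.59). Hrh4, best known from immune cells, gave 0.27 with an interval of -0.01 to 0.54 (adjusted p = 0.155).

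All 5 dopamine receptors were tested, 1 rose and 0 fell, and 19.4% of all genes passed. Drd5, a Gs-coupled receptor of the D1 family, was read by a probe on chromosome 5, from 38713278 to 38713337 in mm9. It read -3.06, -3.24, -3.01 and -3.03 on fasted arrays 1 to 4 and -3.37, -3.23, -3.49 and -3.62 on fed arrays 1 to 4. Fasted array 2 and fed array 2 were nearly equal and the other arrays separated. The log2 difference was 0.34 ± 0.09 (SE; limma adjusted p = 0.0329), a rise of 1.27-fold with a 95% confidence interval of 1.1 to 1.46. It was 0.15 on slide 1 and 0.53 on slide 2. Drd5 missed the threshold under the replicate block (adjusted p = 0.0834) and without the filter on dim probes (adjusted p = 0.0669), and normexp moved the difference to 0.10 (adjusted p = 0.271). It passed in 2 of the 8 fits that left out an array, those without fasted replicate 2 and without fed replicate 2. Drd1, the other member of that family, gave -0.08 ± 0.05 (SE; adjusted p = 0.248).

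Drd2 and Drd3, Gi-coupled receptors of the D2 family, had separate groups and did not pass. Their probes are shown whole with that of Drd4, since the bases themselves read as coding sequence near the end of the protein. No annotation was used to place them. Capitals mark a pattern written from these probes, AACCC, any 2 bases and then TCATCTA, which in these receptors falls in the conserved asparagine-proline to tyrosine stretch of the last membrane helix. The same pattern stands in the probe of Htr6 and in the dimmer probe of Adrb3. The probes of Drd2 and Drd3 do not hold it. On either strand it occurs in 3 of the 69 receptor probes and in 18 of 39429 probes (0.0457%). Since the pattern was written from receptor probes, these counts test nothing about the receptors. A match describes the probe and says nothing on its binding.
Drd2: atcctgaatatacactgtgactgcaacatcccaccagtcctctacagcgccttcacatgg
Drd3: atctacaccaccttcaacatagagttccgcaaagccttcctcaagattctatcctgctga
Drd4: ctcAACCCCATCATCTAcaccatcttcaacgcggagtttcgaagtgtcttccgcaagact
Htr6: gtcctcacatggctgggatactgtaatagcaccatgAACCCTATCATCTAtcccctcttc
Adrb3, dimmer probe: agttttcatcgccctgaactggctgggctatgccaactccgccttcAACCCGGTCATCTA

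Drd3, a receptor concentrated in the islands of Calleja and nucleus accumbens, had the largest difference of any of the 42 receptors. It read -4.21, -4.22, -3.83 and -4.06 on fasted arrays 1 to 4 and -3.35, -3.03, -3.81 and -3.79 on fed arrays 1 to 4. The groups separate by a narrow margin on slide 2, where fasted array 3 sits beside fed arrays 3 and 4. The log2 difference was -0.59 ± 0.18 (SE; limma adjusted p = 0.0585), with a 95% confidence interval of -1.01 to -0.17. It was -1.02 on slide 1 and -0.15 on slide 2. Drd3 passed without fed replicate 3, with trended eBayes, and when only probes detected on all 8 arrays were tested (adjusted p 0.0377 to 0.508 over its alternatives).

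Drd2, the receptor of striatopallidal neurons and the autoreceptor of dopamine neurons, read -3.08, -2.97, -2.89 and -2.91 on fasted arrays, against -2.83, -2.66, -2.85 and -2.77 on fed arrays. Every fasted array was lower, and the log2 difference was -0.18 ± 0.06 (SE; adjusted p = 0.0649). Drd4 gave 0.03, with an interval of -0.29 to 0.34.

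**Figure D3:**
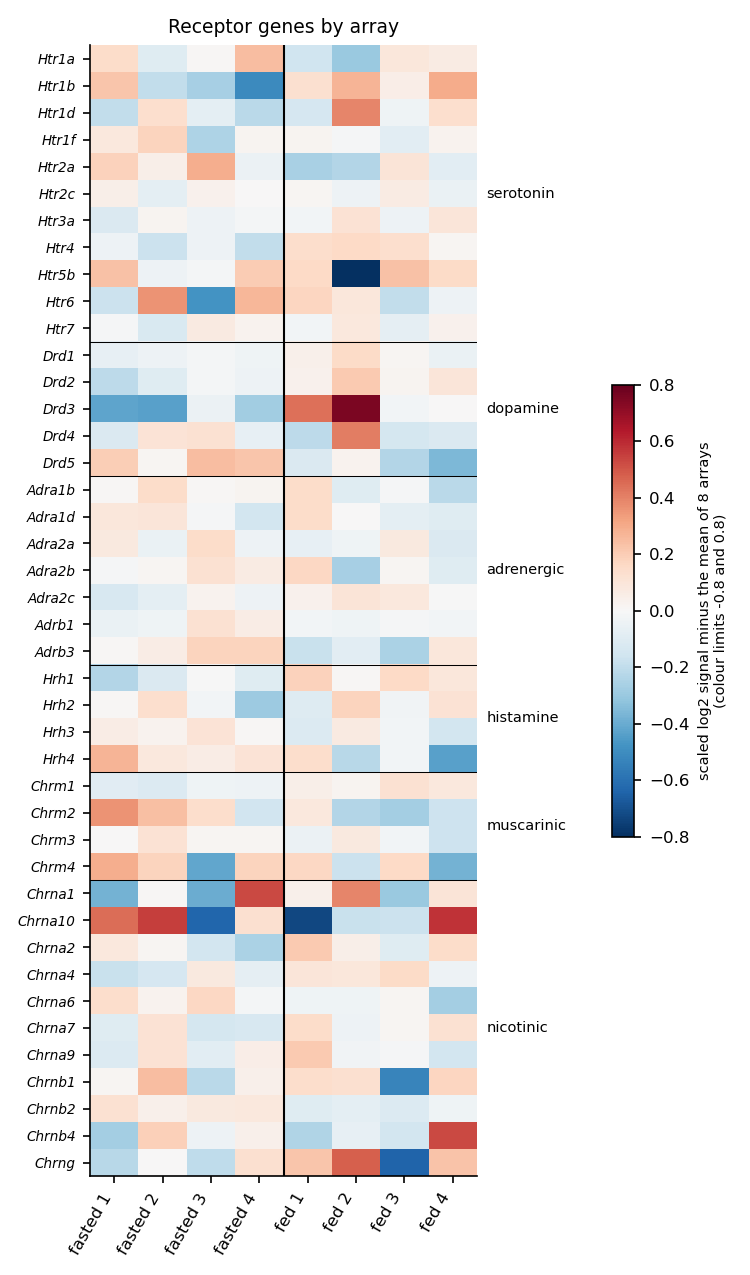
Scaled log2 signal of each of the 42 receptor genes tested, minus its mean over the 8 arrays (colour, limits -0.8 and 0.8), with the 4 fasted arrays left of the 4 fed arrays and genes grouped by family. Chrnb2 is higher and Chrm1, Hrh1, Htr4, Drd2 and Drd3 are lower on all fasted arrays than on any fed array, while many genes vary as much within a group as between groups.

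Of 14 serotonin receptor genes 11 were tested, 0 rose and 1 fell, against 9.96% and 9.41% of all genes. That gene was Htr4, a Gs-coupled receptor of brain and gut. Its probe read -2.59, -2.71, -2.58 and -2.74 on fasted arrays 1 to 4 and -2.40, -2.38, -2.41 and -2.52 on fed arrays 1 to 4. All fasted arrays were below all fed arrays. The log2 difference was -0.23 ± 0.05 (SE; limma adjusted p = 0.0214), 1.17-fold lower with a 95% confidence interval of 1.08 to 1.27. It was -0.26 on slide 1 and -0.20 on slide 2. A second Htr4 probe was well above background on 0 arrays. Htr4 did not pass with median scaling (adjusted p = 0.0519), nor without fasted replicate 2 or 4 or fed replicate 1, 2 or 3 (0.0159 to 0.379 over its alternatives).

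Htr2c, a Gq-coupled receptor of hypothalamus and choroid plexus through which serotonin restrains feeding, differed little. It read 1.30, 1.18, 1.29 and 1.26 on fasted arrays, against 1.28, 1.22, 1.32 and 1.21 on fed arrays, and these ranges lie on top of each other. The log2 difference was 0.00 ± 0.04 (SE; adjusted p = 0.95), with a 95% confidence interval of 0.94 to 1.07 on the linear fold scale. A second Htr2c probe gave 0.03, and another was well above background on 0 arrays.

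Htr2a, the Gq-coupled cortical receptor on which psychedelic drugs act, gave 0.24 ± 0.10 (SE; adjusted p = 0.132). Htr1b, a Gi-coupled receptor of axon terminals, read -4.05, -4.47, -4.54 and -4.78 on fasted arrays, against -4.14, -4.0, -4.22 and -3.98 on fed arrays. Fasted array 1 lay among the fed arrays, and the difference was -0.38 ± 0.14 (SE; adjusted p = 0.106). Without that array Htr1b passed, at -0.51 (adjusted p = 0.0203). Htr1a, the autoreceptor of raphe serotonin neurons, gave 0.15 (adjusted p = 0.355), Htr1d -0.18 and Htr1f 0.02.

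The channel subunit Htr3a gave -0.08 (adjusted p = 0.326). Htr6 and Htr7, which couple to Gs, each gave -0.01, with intervals of -0.44 to 0.41 and -0.13 to 0.11. A second Htr7 probe was well above background on 0 arrays. Htr5b gave 0.19, with fed array 2 (-4.39) far below the other fed arrays (-3.30 to -3.22). Htr2b was well above background on 1 array, a fasted one, and Htr3b and Htr5a on 0 arrays.

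None of 7 adrenergic genes tested passed in limma, while 9.96% of all genes rose and 9.41% fell. At an unadjusted p under 0.05 were 2 of the 7, against 5541 of all 16107 genes. Adra2c, a Gi-coupled presynaptic receptor, read 1.48, 1.53, 1.63 and 1.56 on fasted arrays, against 1.64, 1.71, 1.69 and 1.60 on fed arrays. The groups overlap through fasted array 3 and fed array 4, and the log2 difference was -0.11 ± 0.04 (SE; adjusted p = 0.123). Adrb3, known from fat cells, gave 0.21 (adjusted p = 0.093) on its brighter probe and -0.07 on the other, and the brighter passed without fed replicate 4 (adjusted p = 0.0304). Adra2a, the main autoreceptor of noradrenaline neurons, gave 0.07, Adra2b 0.09, Adrb1 0.04, Adra1b 0.09 and Adra1d 0.02. Adra1a was well above background on 0 arrays.

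**Figure D4:**
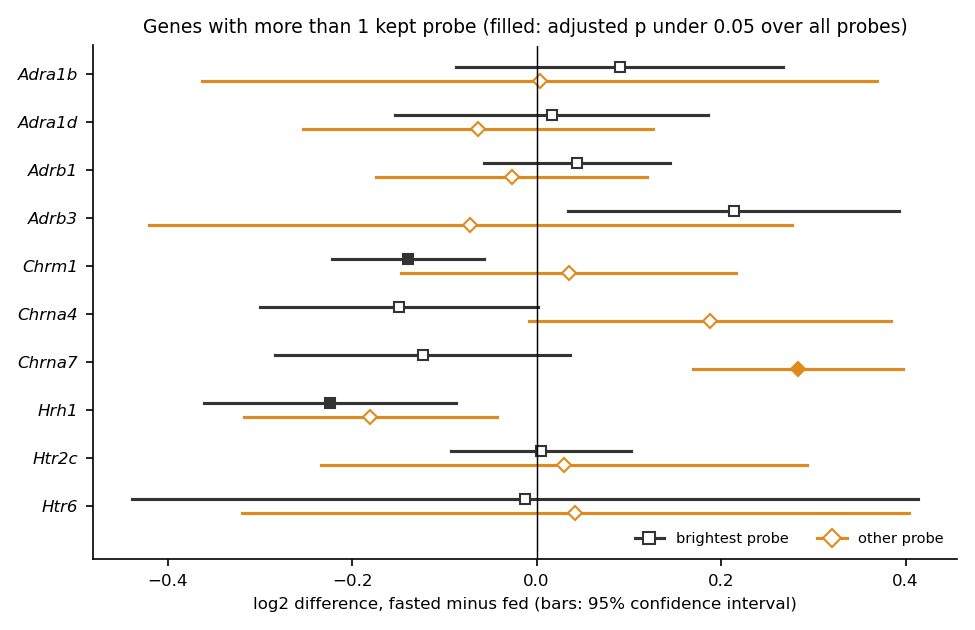
Log2 difference (fasted minus fed, horizontal axis) and 95% confidence interval for the 10 receptor genes with a pair of kept probes, the brighter in black and the other in orange, filled where the adjusted p over all probes was under 0.05. Only Hrh1 has a pair that both lie clear of 0 on one side, and 7 of the 10 pairs are of opposite sign (Adra1d, Adrb1, Adrb3, Chrm1, Chrna4, Chrna7 and Htr6).

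Receptors were also counted by signalling class, beside 9.96% of all genes higher and 9.41% lower, and direction by class was not tested. Of 15 Gi-coupled receptors tested 0 passed (median log2 difference 0.07). At an unadjusted p under 0.05 in limma were 5 of these 15, against 5541 of all 16107 genes. Of 7 Gq-coupled receptors 0 rose and 2 fell (median 0.02), and of 8 Gs-coupled receptors 1 rose and 1 fell (median -0.01). Of 12 channel subunits 1 rose and 0 fell (median -0.06). Among the 37 receptors that did not pass, the 95% confidence interval lay within a 1.5-fold change in either direction for 31. The other 6 were Chrna1, Chrna10, Chrng, Drd3, Htr1b and Htr5b, for which differences of 1.5-fold or more are not excluded by the interval.

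Genes that supply the transmitters and carry the receptor signal were counted for comparison. Of 17 tested genes of synthesis, transport and breakdown, 3 rose and 0 fell, a share close to the 19.4% of all genes that passed. These were Ddc, the decarboxylase that makes dopamine and serotonin, 1.74-fold higher (adjusted p = 0.00131), and the monoamine oxidases Maoa and Maob, 1.24-fold and 1.14-fold higher (adjusted p = 0.00358 and 0.0341). Of 42 G protein, cyclase, phospholipase, kinase and phosphodiesterase genes, including the G protein-gated potassium channels, 2 rose and 4 fell, against 9.96% and 9.41% of all genes. Kcnj3, a G protein-gated potassium channel subunit, rose by a log2 difference of 0.34, while its partner subunit Kcnj6 gave -0.24. Plcb3, a phospholipase that Gq activates, gave -0.24 and Gnai3, an inhibitory G protein subunit, -0.23. These 4, the smallest p-values of the list, passed in limma with adjusted p of 0.00728 to 0.0153. Also past the threshold were Plcb1, another phospholipase, at 0.31 (adjusted p = 0.0284), and the phosphodiesterase Pde7b at -0.20 (adjusted p = 0.0191). Of 21 genes of receptor desensitisation and assembly 1 rose, Ric3, and 0 fell.

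**Figure D5:**
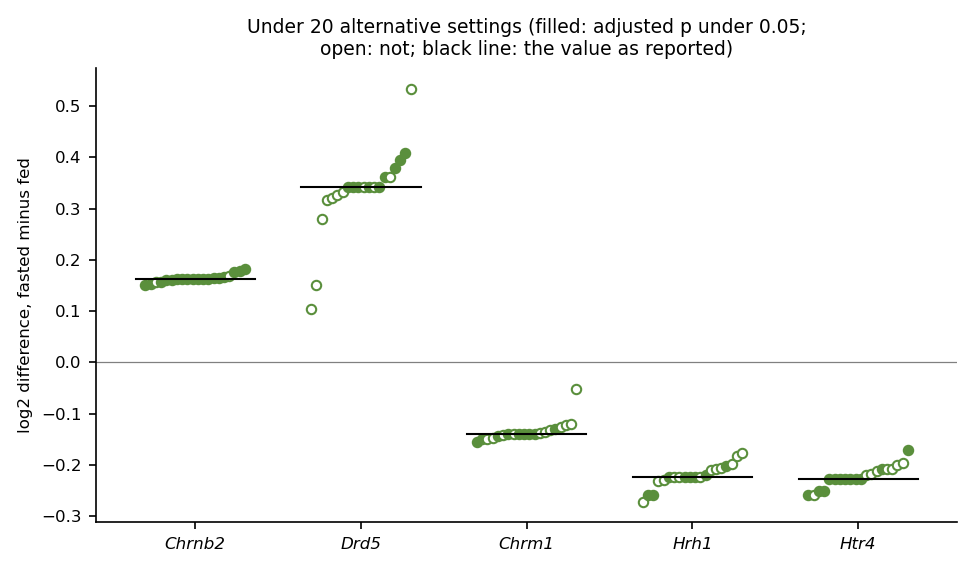
Log2 difference (fasted minus fed, vertical axis) of the 5 receptor genes that passed, under 20 alternative settings (points, filled where the adjusted p was under 0.05) and as reported (black line). No point crosses 0, and Chrnb2 is filled in 18 settings, Htr4 in 12, Chrm1 and Drd5 in 9 and Hrh1 in 8.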

How the data were processed

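The deposited scanner files hold spot intensity from 8 Cy3 arrays. Per the file headers they were made with Agilent Feature Extraction 11.0.1.1, with detrending on; the submitters' processing notes name version 10.10.1.1. Array coordinates are mm9, per the file headers, and exon or UTR position was not analysed here. The processed signal, an intensity the authors deposited, was put on the log2 scale, less the 75th percentile of its array (1651 to 1944). Control spots and spots flagged as outliers (128 to 217 an array) were dropped, and repeat spots averaged. A probe was detected where at least 0.5 of its spots were well above background, and kept when detected on at least 4 of 8 arrays, which left 26066 probes. These well-above-background flags are 0 or 1 in the deposited files, per the file headers. Names came from RefSeq accessions of GRCm38.p6 for 63 receptor probes and from matching symbols for 6; Drd1a of the files is Drd1.

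The fasting comparison used lmFit and eBayes of limma 3.58.1 under R 4.3.3 (two-sided, no block), with Benjamini-Hochberg adjustment over all kept probes or, for genes, over the brightest kept probe of each of 16107 named genes. The threshold was 0.05. The procedure was also run on simulated data with independent noise on each array. That setting holds no slide effect and no shared deviation of same-numbered arrays, so it cannot speak to either. The deposited series table holds a ratio per spot; it equals the scaled signal divided by a constant per probe (spread over arrays 0.000168, log2), so scale and direction are known and the baseline is not. Its column medians were 0.970, 0.993, 0.973 and 0.987 for fasted arrays and 0.987, 1.02, 0.991 and 1.02 for fed arrays. It was used as an alternative, beside other backgrounds, scalings, filters, blocks and left-out arrays. Same-numbered fasted and fed arrays deviated together (r = 0.18, 0.28, 0.29 and 0.18), so the replicate block is printed where it changed a call; these arrays share a slide and neighbouring positions.

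Receptor genes are named, except 1 that is not reported here; those that passed, and others whose probes or groups a sentence turns on, have values for every array. Of other lists, up to 4 members past the threshold were taken by smallest p, and Plcb1 and Pde7b were added to these. Members and lists were chosen with earlier results of these data known.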

Additional observations from a re-analysis of the deposited data

Results flagged for a closer look

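Within each group of 4 arrays, an array was singled out where the share of the group's range taken by its gap to the nearest other array was above Dixon's 95% critical value. Of 84 such groups, 42 receptors in fasted and fed brain, 7 were singled out, and chance gives about 1 in 20. In the fasted group, replicate 2 stood high for Adra1b (0.43, others averaging 0.29), Chrm3 (-1.60, others -1.70) and the brighter Chrna7 probe (-3.37, others -3.61). Fasted replicate 3 stood low for Chrm4, at -4.04 against -3.41 in the others. In the fed group, replicate 2 stood high for Drd4 (-3.19, others -3.75) and low for Htr5b (-4.39, others -3.27). Fed replicate 3 stood low for Chrnb1, at -5.14 against -4.46 in the others. None of the 5 receptors that passed was among them.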

How the results depend on the processing

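Under 20 alternatives no receptor that passed changed its direction, but the count of 5 (2 higher, 3 lower) was not stable. It was 2 of 53 without the filter on dim probes (1 higher, 1 lower, Chrnb2 and Htr4) and 2 with median scaling (2 higher, 0 lower). It was 3 with normexp (1 higher, 2 lower) and 3 with the replicate block (1 higher, 2 lower). Under the block Drd5 and Hrh1 dropped out and no other receptor's call changed. Of all genes 8.81%, 14.9%, 12.8% and 16.8% passed in these fits, in that order, against 19.4% in the main fit. The count was 6 (2 higher, 4 lower, with Drd3 added) with only probes detected on all 8 arrays and with trended eBayes. There 22.1% and 22.5% of all genes passed. Averaging the probes of a gene gave 4 (2 higher, 2 lower), and 19.2% of all genes. Quantile normalization, a slide block and the series table each gave 5. When each slide was fitted by itself, leaving 2 fasted and 2 fed arrays, the count was 0 on either slide. At an unadjusted p under 0.05 in limma were 13 of 42 receptors on slide 1, against 3732 of all 16107 genes. On slide 2 it was 3 of 42 receptors, against 2487 of all 16107 genes. Leaving out 1 array gave 1 to 5 receptors, 1 to 2 higher and 0 to 4 lower, the fewest without fed replicate 1. Of all genes 12.4% to 16.9% passed in these fits. Chrm2 passed without fasted replicate 4 and Chrna4 without fasted replicate 3. The median log2 difference over the receptors, 0.0106, was -0.0126 without the filter, 0.0296 with median scaling, 0.0294 with quantile normalization and -0.00877 with normexp, and -0.0234 to 0.0377 with 1 array left out. Median scaling moved the median of all genes by 0.02. Normexp was run with an offset of 50. Under it the difference of Drd5 went from 0.34 to 0.10 and that of the dimmer Chrna7 probe from 0.28 to 0.06. That of Hrh2, also a dim gene, went from -0.08 to -0.16, and that of the brighter Chrna7 probe from -0.12 to -0.14. The cause of these and the other changes was not tested. Of the 42 receptor genes tested 32 passed under no alternative. Over all genes the median standard error was 0.108 in the dimmest bin by mean signal and 0.0407 in the brightest. The part of signal near background in the receptor calls was not tested.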
